A study of Homo sapiens and Mus musculus with 10 samples.

Results

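The control state of ER-Hoxa9 cells was described from gene expression alone. The ER-Hoxa9 line consists of mouse myeloid progenitors whose growth depends on a HOXA9 protein that estrogen switches on. The libraries were chosen by their labels, as the 2 DMSO (vehicle) libraries of this line among 10 libraries of the series, and all 24493 gene symbols of the mouse table were read in both. The line was kept in RPMI with 10% serum, 0.5 µM β-estradiol and 1 to 2% medium conditioned by hamster cells that secrete stem cell factor, so both libraries come from cells given the hormone that activates such a protein. The series as a whole compares DMSO with WM-1119, an inhibitor of the histone acetyltransferase KAT6A, and no treated library was used here. The labels do not say whether the 2 replicates were separate cultures, nor from which mouse strain or clone the line was made, and they name no reporter or knocked-in allele. With 2 libraries no test was made, and each gene is given by its value in replicate 1 and then in replicate 2.

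HOXA9 is a homeobox transcription factor that is high in haematopoietic stem cells and early progenitors and is shut off as these cells mature. It binds DNA together with MEIS and PBX proteins, and sustained HOXA9 activity keeps myeloid progenitors dividing without maturing. Normal neutrophil development runs through a fixed order of granule genes, with primary granule proteins made in promyelocytes, secondary and tertiary granule proteins in later precursors, and many cytosolic proteins in the mature cell.

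Levels are in TPM (transcripts per 1000000), which are scaled to transcript length and to the library total, so different genes can be compared within a library. A gene was called expressed at 1 TPM or more in both libraries, and low when it was above 0 but did not reach 1 TPM in both. By this rule 9867 of 19486 protein-coding symbols (50.6%) were expressed, 4353 were low and 5266 were listed at 0 in both libraries. The median expressed gene stood at 19.1 and 20.3 TPM, and 111 genes reached 1000 TPM in both libraries. None of 15 housekeeping genes looked up was at 0. Across 10066 protein-coding genes whose mean was 1 TPM or more, log2(TPM + 1) of the libraries correlated with a Pearson r of 0.984 and a Spearman rho of 0.983. That correlation is across genes, which are not independent replicates. TPM keep no read depth, so the depth behind these values is unknown. In bulk RNA, fewer cells with a transcript and less transcript in each cell cannot be told apart.

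The most abundant protein-coding transcripts were those of the translation machinery. Of the 25 genes with the highest mean, 24 encoded ribosomal proteins, led by Rplp1 at 14587 and 13271 TPM, Rps27rt at 14079 and 11830.4 TPM and Rps21 at 11675 and 11777 TPM. The remaining gene, 6th by its mean, was Eef1a1, the elongation factor that brings aminoacyl-tRNA to the ribosome, at 10122 and 9666 TPM. Together these 25 genes held 23.9% and 22.1% of protein-coding TPM, and all 88 cytosolic ribosomal protein symbols held 42.1% and 38.3%. Many of these genes have near-identical processed copies, so the split of reads among them is uncertain.

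Outside the ribosome, a ranking added after the values were seen put a granule protease among housekeeping genes. Ctsg, which encodes the neutrophil protease cathepsin G, stood at 2379 and 2679 TPM, rank 60 among protein-coding genes by its mean. Only Eef1a1, Ptma, Ppia and Tpt1 had higher means among genes that are not ribosomal. Plac8, a small protein of myeloid progenitors, followed at 2255 and 2027 TPM (rank 76), just below the nucleolar chaperone Npm1 at 2213 and 2186 TPM and the ferritin light chain Ftl1 at 2449 and 1914 TPM. The metallothionein Mt1, a metal-binding protein, was at 2186 and 2604 TPM, and the cytokine Mif at 1295 and 1982 TPM. Among the 25 leading genes outside the ribosome, Ctsg and Plac8 were the primary granule list's members.

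Hoxa9 was the sole HOX gene expressed. Its level was 254 and 269.5 TPM, rank 381 among protein-coding genes, and the libraries were close to each other. Of 39 symbols of the 4 HOX clusters in the table, 23 were listed at 0 in both libraries and the highest value of any other was 0.546 TPM, that of Hoxd9 in replicate 1. The neighbours of Hoxa9 in its cluster followed the same pattern, with Hoxa7 at 0 and 0 TPM and Hoxa10 at 0.0278 and 0 TPM. Transcripts of the introduced fusion gene and of the mouse's own Hoxa9 cannot be told apart in a gene total.

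Partners of HOXA9 were present at lower levels. Meis1, the cofactor that works with HOXA9 in stem cells and leukaemia, was at 57.3 and 39.7 TPM, and Hoxa9 exceeded it 4.43-fold and 6.78-fold. The PBX family was represented by Pbx2 (35.8 and 42.3 TPM), Pbx4 (15.6 and 16.4 TPM) and Pbx3 (9.81 and 11.9 TPM). Pknox1, a MEIS-related homeobox gene, was at 14.7 and 14.7 TPM. In all, 5 of the 8 MEIS, PBX and PKNOX genes on the list were expressed. Esr1, the estrogen receptor gene, was at 74.7 and 85 TPM while Esr2 was low at 0.645 and 0.641 TPM. Whether the Esr1 reads come from the hormone-binding part of the fusion or from the mouse gene cannot be told apart here.

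Of 26 granulocyte and monocyte transcription factors, 16 were expressed (61.5%, beside 50.6% of all protein-coding symbols) and 10 were low. Gfi1, a repressor needed for neutrophil development, led at 323 and 228 TPM. Cebpa, which starts the granulocyte programme, stood at 164 and 138 TPM, and Spi1, which encodes the myeloid master factor PU.1, at 85.6 and 89.8 TPM. Cebpb, which acts in stress granulopoiesis, was at 87.5 and 75 TPM. Cebpe, which drives secondary granule genes, was lower at 18.9 and 33.1 TPM, and Cebpa exceeded it 8.69-fold and 4.19-fold.

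Irf8, which directs monocyte and dendritic cell fate, was at 0.773 and 3.8 TPM and reached 1 TPM in replicate 2 alone. Klf4, a factor of monocyte differentiation, was at 0.529 and 1.01 TPM. Maf, a macrophage factor, was at 0.467 and 0.657 TPM. Irf5 and Klf6, which act in macrophages, were expressed at 9.56 and 9.95 TPM and 6.98 and 8.36 TPM. Gfi1 was above Irf8 in both libraries, 59.9-fold in replicate 2 where both passed 1 TPM. The immediate early gene Egr1 was at 9.88 and 13.1 TPM, while its relative Egr2 was low at 0.428 and 0.497 TPM.

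Of 28 stem and progenitor factors 23 were expressed (82.1%, beside 50.6% of all protein-coding symbols), and 19 reached 10 TPM in both libraries. On the separate list of stem cell markers 6 of 17 were expressed (35.3%), with Slamf1, Mecom and Hoxb5 listed at 0. Myb, required for progenitor self-renewal, was at 427 and 441 TPM, and Myc, a driver of growth, at 317 and 302 TPM. The basic helix-loop-helix factor Lyl1 was at 150.3 and 179.9 TPM, its partner Lmo2 at 84.4 and 126 TPM and Tal1 at 26.5 and 21.4 TPM. Hlf, a factor usually restricted to stem cells and early progenitors, was at 112 and 111 TPM in nearly equal amounts. Gata2, which acts in stem cells, mast cells and basophils, was at 61.3 and 51.2 TPM, and the oncofetal gene Hmga2 at 26 and 36.4 TPM.

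Within the RUNX family the order was Runx2 (53.1 and 48.4 TPM), Runx3 (34.8 and 36.9 TPM) and Runx1 (4.72 and 7.5 TPM), so the family's best known blood regulator was the least abundant. The shared partner Cbfb was at 73.4 and 68.7 TPM. The members not expressed included Ets1 at 0.0231 and 0.0242 TPM and Eya1 at 0.0265 and 0.0147 TPM, with Mecom and Nkx2-3 listed at 0. Mecom is a stem cell regulator that is often activated in leukaemia.

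Factors of the other lineages were expressed near or below the 50.6% of all protein-coding symbols. Of 8 erythroid and megakaryocyte factors 4 were expressed, namely the cofactors Ldb1 (186 and 166 TPM) and Zfpm1 (26.9 and 25.3 TPM), Nfe2 (153 and 161 TPM) and Tal1. The lineage-defining Gata1 and Klf1 were low at 0.322 and 0.539 TPM and 0.459 and 0.932 TPM. Of 16 lymphoid factors 5 (31.25%) were expressed. Tcf3, the broadly expressed E protein, was at 64 and 59.2 TPM, Ebf1, a B cell specification factor, at 27.6 and 33.1 TPM, and Rag2, a subunit of the antigen receptor recombinase, at 12.3 and 18.6 TPM. Rag1, the other subunit, was low at 0.318 and 0.634 TPM, as was the B cell commitment factor Pax5 at 0.396 and 0.633 TPM. Tcf7, a T cell factor, was at 1.3 and 3.15 TPM and Foxo1 at 1.62 and 2.01 TPM.

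**Figure D1:**
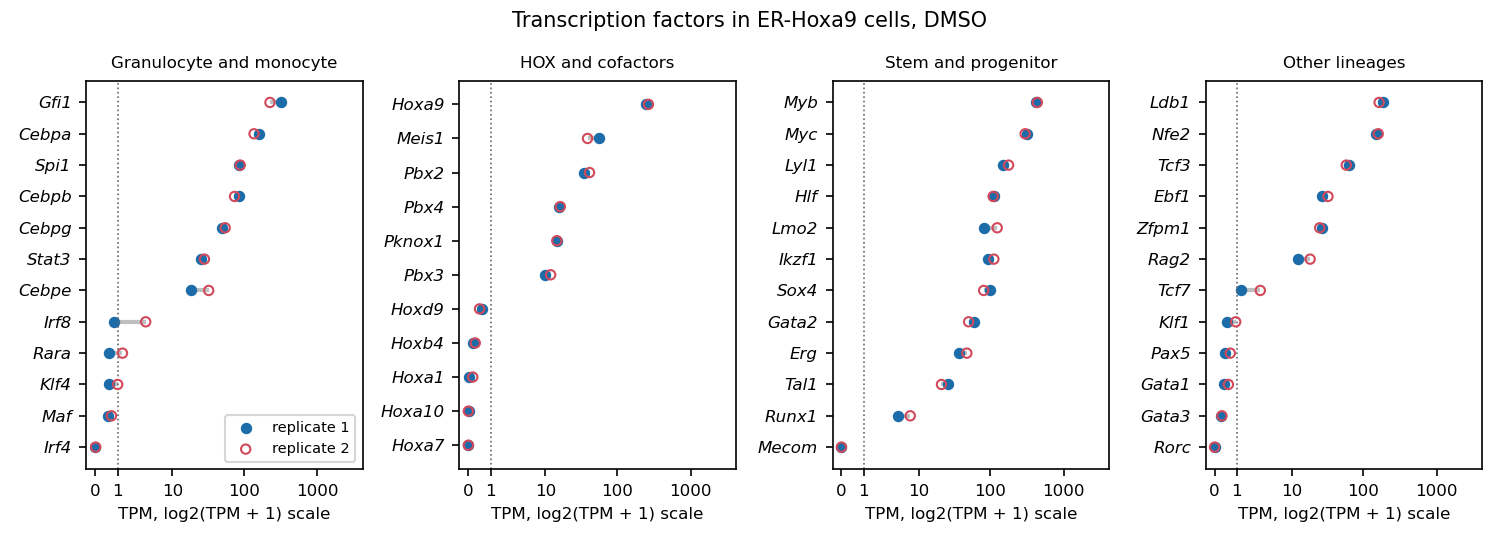
Transcription factor levels in each of the 2 DMSO libraries (filled points, replicate 1, and open points, replicate 2), on a log2(TPM + 1) scale with the dotted line at 1 TPM. Gfi1, Cebpa, Spi1, Myb and Myc lie to the right, while every HOX gene shown other than Hoxa9 lies left of the line, as do Mecom, Gata1, Klf1 and Pax5.

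Kat6a, the target of the inhibitor used elsewhere in the series, was at 14.3 and 16.6 TPM in these control cells. All 14 genes on the list of its complex and of other MYST acetyltransferases were expressed, beside 50.6% of all protein-coding symbols. Its paralogue Kat6b was at 4.66 and 5.14 TPM. The scaffold subunits were led by Brd1 at 33.5 and 32.8 TPM and Brpf1 at 19.2 and 18.5 TPM, above Brpf3 at 8.01 and 6.52 TPM. Kat5, Kat7 and Kat8, the other enzymes of the family, were at 43.9 and 38.5 TPM, 22.5 and 28.5 TPM and 23.3 and 22.8 TPM, all above Kat6a in both libraries.

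Among growth factor receptors, those of early progenitors were the most abundant. Kit, the receptor for stem cell factor, was at 228 and 205 TPM and Flt3, a receptor of multipotent and lymphoid-primed progenitors, at 146 and 161 TPM. Of 31 cytokine and growth factor receptors 24 were expressed (77.4%, beside 50.6% of all protein-coding symbols) and 17 reached 10 TPM in both libraries. Csf2ra, the binding chain for GM-CSF, was at 64.6 and 65.5 TPM, and the shared signalling chain Csf2rb at 16.5 and 25.9 TPM. Its near copy Csf2rb2 was at 1.08 and 2.21 TPM, and reads of this pair may be split uncertainly. Il3ra was at 12.7 and 13.1 TPM.

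The receptors of later myeloid stages were lower. Csf3r, the G-CSF receptor of the neutrophil branch, was at 8.48 and 13.3 TPM, and Kit exceeded it 26.8-fold and 15.4-fold. Csf1r, the macrophage growth factor receptor, was low at 0.116 and 0.548 TPM. Receptors of other lineages were also low, with Il7r (lymphoid progenitors) at 0.123 and 0.12 TPM and Epor (erythropoietin) at 0.777 and 1.51 TPM. Il6ra was at 2.12 and 4.03 TPM and its signalling partner Il6st at 1.47 and 2.11 TPM. The interferon receptor chains Ifnar2 (88.8 and 93.2 TPM) and Ifngr1 (40.6 and 54.5 TPM) were well above the median expressed gene.

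Of 17 steroid and nuclear receptors 7 were expressed (41.2%, beside 50.6% of all protein-coding symbols). Besides Esr1 the leading members were Rxrb at 86.1 and 75.8 TPM, Nr1h2 at 66.4 and 61.3 TPM and the glucocorticoid receptor Nr3c1 at 20.04 and 23.6 TPM. The retinoic acid receptor of the granulocyte branch, Rara, was at 0.544 and 1.33 TPM, and Rarg, another member, at 3.44 and 3.78 TPM. Rxra was low at 0.0433 and 0.157 TPM, far below Rxrb, its retinoid X receptor paralogue.

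Of 27 chemoattractant receptors 10 were expressed (37.0%, beside 50.6% of all protein-coding symbols), 11 were low and 6 were listed at 0. Ccr2, the receptor for monocyte chemoattractant protein, was the highest at 71.8 and 102 TPM. Ptafr, the platelet-activating factor receptor, was at 28.4 and 28.4 TPM, and Cxcr4, which retains progenitors and neutrophils in the marrow, at 21.1 and 30.7 TPM. Cxcr2, which releases neutrophils from the marrow, was at 1.42 and 1.99 TPM. The formyl peptide receptor genes Fpr1, Fpr2 and Fpr3, which mature phagocytes use to sense bacteria, were listed at 0 in both libraries, as was Cxcr1.

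Of 30 pattern recognition genes 13 were expressed (43.3%, beside 50.6% of all protein-coding symbols), but 3 of these reached 10 TPM in both libraries. These were the C-type lectin Clec4e at 47.3 and 69 TPM, its neighbour Clec4d at 23 and 27.4 TPM and the adaptor Myd88 at 16.1 and 16.7 TPM. Among 12 Toll-like receptor symbols 3 were expressed, Tlr4 (2.24 and 4.84 TPM), Tlr2 (1.05 and 1.6 TPM) and Tlr6 (1.08 and 1.15 TPM). Cd14, the lipopolysaccharide co-receptor, was at 1.1 and 1.94 TPM.

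On the list of Fc and immunoglobulin-like receptors the highest genes were signalling adaptors, Fcer1g, the shared chain of Fc receptors, and Tyrobp. Fcer1g was at 761 and 619 TPM and Tyrobp at 423 and 394 TPM, while another adaptor, Hcst, was lower at 63.5 and 112 TPM. The binding receptors Fcgr3 (65.3 and 69.4 TPM), Fcgr2b (43.9 and 51.8 TPM) and Fcgr1 (18.5 and 12.3 TPM) were expressed, and Fcgr4, found on mature neutrophils and monocytes, was at 0.866 and 1.14 TPM. Fcer1a, the binding chain of the IgE receptor, was listed at 0. Cd33, an early myeloid antigen, was at 88.9 and 140.2 TPM.

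Among 22 listed progenitor surface antigens 12 were expressed (54.5%, near the 50.6% of all protein-coding symbols), 9 were low and 1 was listed at 0. Cd34 was at 672 and 836 TPM, rank 139 among protein-coding genes, and exceeded Kit 2.95-fold and 4.08-fold. Ly6a, the stem cell antigen that marks mouse stem cells together with Kit, was low at 0.39 and 0.0854 TPM, and Slamf1 was listed at 0. Procr, another stem cell antigen, was low by the same rule at 0.984 and 1.34 TPM. Cd48, which marks progenitors past the stem cell stage, was at 28.4 and 33.5 TPM, Cd93 at 17.8 and 37.8 TPM and Thy1 at 4.78 and 8.78 TPM.

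Ptprc, which encodes the pan-leukocyte antigen CD45, was at 64.3 and 57 TPM and Spn at 119 and 92.8 TPM. Cd47, the signal that blocks phagocytosis, was at 218 and 268 TPM and the tetraspanin Cd63 at 989.8 and 759 TPM. Markers used to sort mature myeloid cells were lower. Itgam (CD11b) was at 1.32 and 2.8 TPM, Adgre1 (a macrophage antigen) at 2.36 and 4.26 TPM and Ly6c2 at 0.203 and 0.799 TPM. Ly6g, the neutrophil antigen, was listed at 0 in both libraries, as were Ly6c1, Anpep and Mme.

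Of 25 integrins and adhesion partners 18 were expressed (72%, beside 50.6% of all protein-coding symbols). The kindlin Fermt3, needed for integrin activation in blood cells, was at 227 and 203 TPM. Itgb1 (86.3 and 95.4 TPM), Itga6 (79.1 and 69.98 TPM), Itgal (54 and 61 TPM) and Itga4 (42 and 52 TPM) led the integrin chains. Itgb2, which pairs with both Itgal and Itgam, was at 26 and 25 TPM, between the levels of those partners.

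MHC class I genes were abundant and class II genes low. B2m, the light chain of class I, was at 1932 and 1612 TPM, H2-D1 at 984 and 779.7 TPM and H2-K1 at 929 and 751 TPM, and each was higher in replicate 1. The peptide transporter genes Tap1 and Tap2 were at 119.9 and 94.4 TPM and 203 and 144 TPM. For class II, H2-Ab1 was at 0 and 0.643 TPM, Cd74 at 0.168 and 0.26 TPM and the class II transactivator Ciita at 0.0107 and 0.0474 TPM, with H2-Eb1 listed at 0. The class II accessory genes H2-DMa and H2-DMb1 were expressed at 20.7 and 22.9 TPM and 25 and 25.5 TPM.

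**Figure D2:**
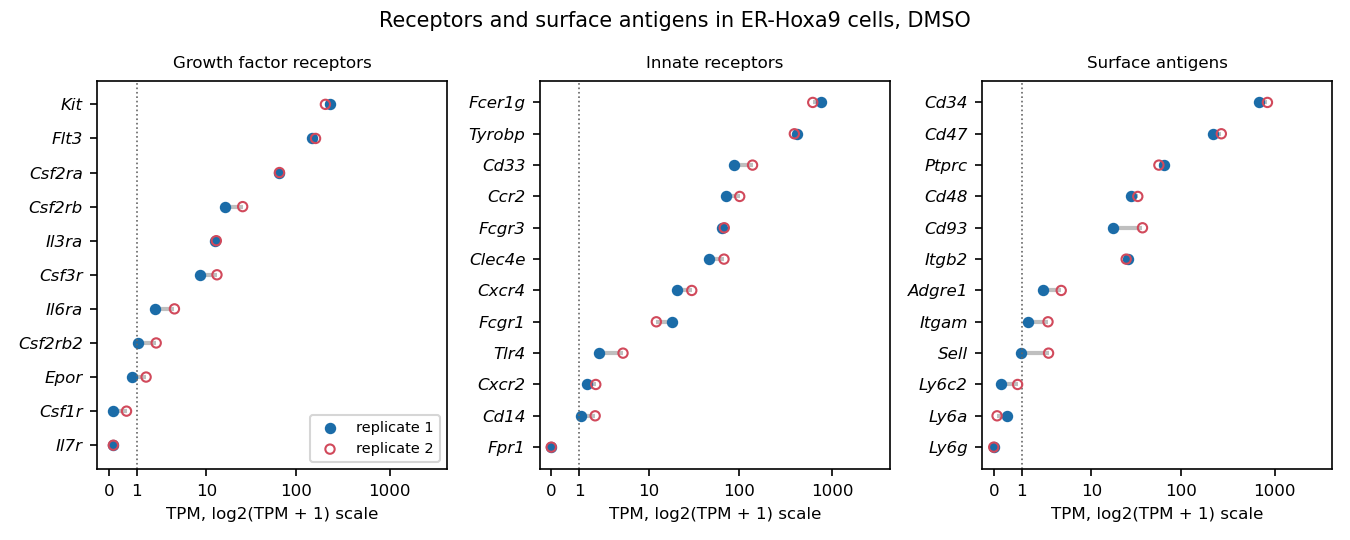
Levels of receptor and surface antigen genes in each of the 2 DMSO libraries (filled points, replicate 1, and open points, replicate 2), on a log2(TPM + 1) scale with the dotted line at 1 TPM. Kit, Flt3 and Cd34 lie above 100 TPM in both libraries, whereas Csf1r, Il7r, Ly6c2 and Ly6a lie below 1 TPM and Ly6g and Fpr1 at 0.

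Primary granule genes were expressed nearly as a whole but at very unequal levels. Of 24 members 21 were expressed (87.5%, beside 50.6% of all protein-coding symbols), and the summed level of the list was 8187 and 9284 TPM. Below Ctsg, Mpo (myeloperoxidase) stood at 385 and 1379.6 TPM and Prtn3 (proteinase 3) at 215 and 514 TPM. Elane, which encodes neutrophil elastase and is a neighbour of Prtn3 in the genome, was at 1.48 and 6.84 TPM. Ctsg thus exceeded Prtn3 11.05-fold and 5.21-fold, and Elane 1605-fold and 392-fold.

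The serpin Serpinb1a, an inhibitor of these proteases, was at 288 and 361 TPM, and Ctsc, which encodes the enzyme that activates them, at 11.3 and 14.9 TPM. Srgn, the proteoglycan core that packs granule proteins, was at 846 and 700.4 TPM. Ms4a3, a granulocyte and monocyte progenitor marker, was at 1.3 and 7.04 TPM, and Bpi was low at 0.527 and 0.352 TPM. Lyz2 (lysozyme) was listed at 0 in both libraries and Lyz1 was at 0 and 0.179 TPM. The genotype of the line at the lysozyme locus is not given in the sources used here, and the deposited columns carry the name LysHoxa9, which the labels do not use. They were matched to ER-Hoxa9 as the only mouse line of the series.

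Secondary and tertiary granule genes were expressed at near the share of all protein-coding symbols (48.4% beside 50.6%). Of 31 members 15 were expressed, 14 were low and 2 were listed at 0. The classical secondary granule genes were near 0, with Ltf (lactoferrin) at 0.0636 and 0 TPM, Camp (cathelicidin) at 0.167 and 0 TPM and Ngp at 0 and 0.0667 TPM. The granule proteases Mmp8 and Mmp9 were low at 0.216 and 0.508 TPM and 0.126 and 0.361 TPM. Lcn2, a siderophore-binding protein usually grouped with them, stood apart at 216 and 138 TPM. Pglyrp1, a peptidoglycan-binding protein, was at 21.8 and 52 TPM and the protease inhibitor Slpi at 5.66 and 33.6 TPM. The other high members, such as Stxbp2 at 88.3 and 82.7 TPM and Tcn2 at 45.7 and 55.1 TPM, also act outside granulocytes.

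Of 26 genes of the late neutrophil cytosol 12 were expressed (46.2%, beside 50.6% of all protein-coding symbols), 8 were low and 6 were listed at 0. S100a8 and S100a9, the calprotectin subunits of mature neutrophils, were at 3.69 and 0.539 TPM and 1.77 and 0.254 TPM. Retnlg, Wfdc21 and the stefin genes Stfa2, Stfa2l1 and Stfa3 were listed at 0. The 12 expressed members were led by the interferon-induced transmembrane gene Ifitm2 at 487 and 602 TPM. S100a11, which many cell types express, followed at 280.4 and 183 TPM, then Msrb1 at 144 and 208 TPM. Ifitm3, a relative of Ifitm2, was at 142 and 176 TPM and Alox5ap at 81.5 and 164 TPM. Padi4, Mxd1 and Ifitm6 were also among the expressed members.

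The phagocyte NADPH oxidase was present except for its catalytic subunit. Cyba, the smaller membrane subunit, was at 453 and 404 TPM, and the cytosolic subunits Ncf1 and Ncf4 at 81.3 and 107 TPM and 62.5 and 62.6 TPM. The GTPase Rac2 was at 188 and 165 TPM. Cybb, the catalytic subunit made as granulocytes and monocytes mature, was at 0.035 and 0.013 TPM. Thus 7 of the 8 listed genes were expressed, each at 10 TPM or more in both libraries, and Cybb was the exception.

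**Figure D3:**
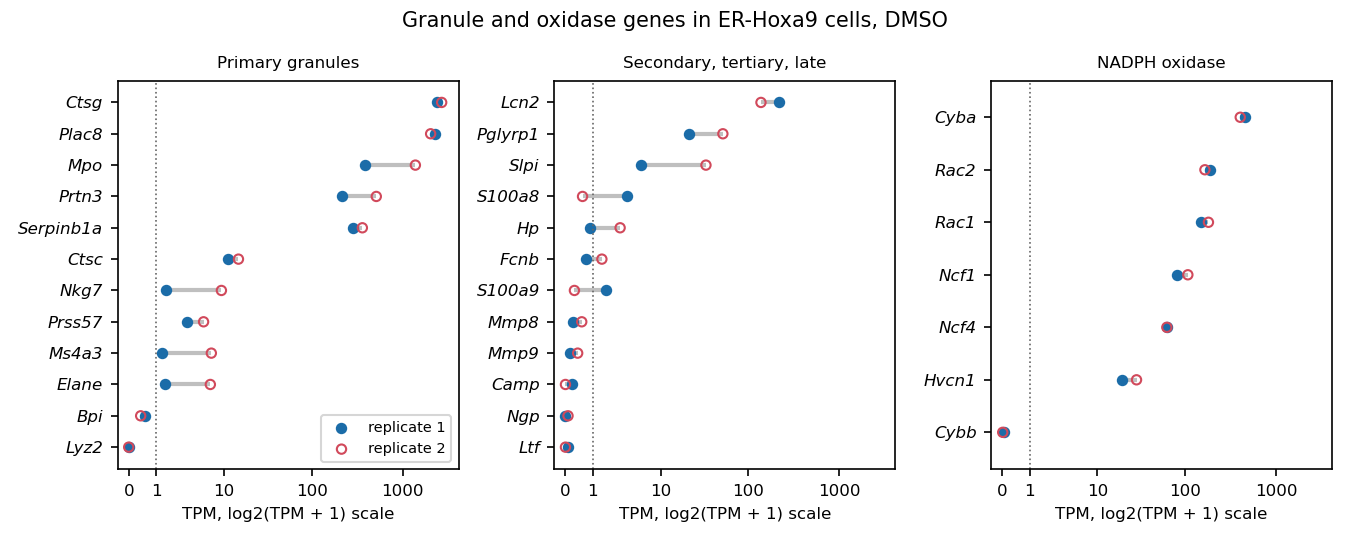
Levels of granule and oxidase genes in each of the 2 DMSO libraries (filled points, replicate 1, and open points, replicate 2), on a log2(TPM + 1) scale with the dotted line at 1 TPM. The grey bars that join the libraries are longest for Mpo, Nkg7, Ms4a3, Elane and Slpi, all higher in replicate 2, and Cybb and Lyz2 lie at or near 0.

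Marker lists of other cell types held both expressed members and members at 0, beside 50.6% of all protein-coding symbols expressed. For mast cells and basophils 4 of 15 markers were expressed. Cpa3, a granule protease of mast cells and basophils that progenitors also make, was at 629.9 and 362 TPM and Mcpt8, a basophil protease, at 33.2 and 41.1 TPM. The mature mast cell and basophil genes Cma1 (0.26 and 0.218 TPM), Tpsb2 (0.325 and 0 TPM) and Prss34 (0.0561 and 0.251 TPM) were low, and Tpsab1, Mcpt4 and Fcer1a were listed at 0. For eosinophils 5 of 11 markers were expressed. The granule genes Prg2 and Prg3 were at 123 and 72.2 TPM and 85.9 and 103 TPM, the sialic acid receptor Siglecf at 16.4 and 27.3 TPM, the lipoxygenase Alox15 at 4.55 and 6.02 TPM and the interleukin receptor chain Il5ra at 1.2 and 1.14 TPM, while Epx (eosinophil peroxidase) was low at 0.0649 and 0 TPM and all 4 ribonuclease genes on the list were listed at 0.

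Of 17 B lineage markers 6 were expressed. They were Igll1, a surrogate light chain gene of B cell precursors, at 23.5 and 69.2 TPM, Cd79b at 18.9 and 28.1 TPM, Vpreb3 at 8.43 and 10.5 TPM, Cd79a at 1.35 and 3.58 TPM, Ebf1 and Rag2. Ms4a1, an antigen of mature B cells, was listed at 0. For T and NK cells, Cd3d (7.37 and 6.76 TPM) and Lck (3.12 and 2.92 TPM) were expressed, while the related genes Cd3e and Cd3g were listed at 0.

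For monocytes and macrophages 13 of 27 markers were expressed, led by the chemokine gene Ccl9 at 131 and 192 TPM, Ccr2, and F13a1, a coagulation factor subunit of monocytes, at 25.4 and 109.7 TPM. The C1q genes C1qa, C1qb and C1qc were listed at 0. Among dendritic cell markers the expressed members were led by Cst3 at 133 and 199 TPM, Flt3 and Bst2 at 96.9 and 99.4 TPM, none restricted to dendritic cells, and Siglech was at 0.136 and 0 TPM.

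For erythroid cells, Tfrc (transferrin receptor) at 37.9 and 41.6 TPM and Car2 at 31.9 and 28.4 TPM led 4 expressed of 19 markers. The globin genes Hba-a1 and Hbb-bt were at 0.955 and 4.57 TPM and 0.304 and 2.37 TPM. For megakaryocytes and platelets 5 of 17 markers were expressed. Plek was at 86.8 and 108 TPM, Itga2b at 14.9 and 16 TPM and Gp9 at 5.67 and 11.5 TPM. Itgb3 was at 5.43 and 9.93 TPM and Pf4 at 1.9 and 12.6 TPM. Another 7 markers were low, and Gp1bb, Gp6, Tubb1, Treml1 and Clec1b were listed at 0. Of 16 stromal and endothelial markers 2 were expressed, Pecam1 at 56.5 and 79.2 TPM, which leukocytes share, and Pdgfrb at 19 and 12.7 TPM. The collagen gene Col1a1 was at 0.277 and 0.215 TPM and the epithelial marker Epcam at 0.0293 and 0.0981 TPM.

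**Figure D4:**
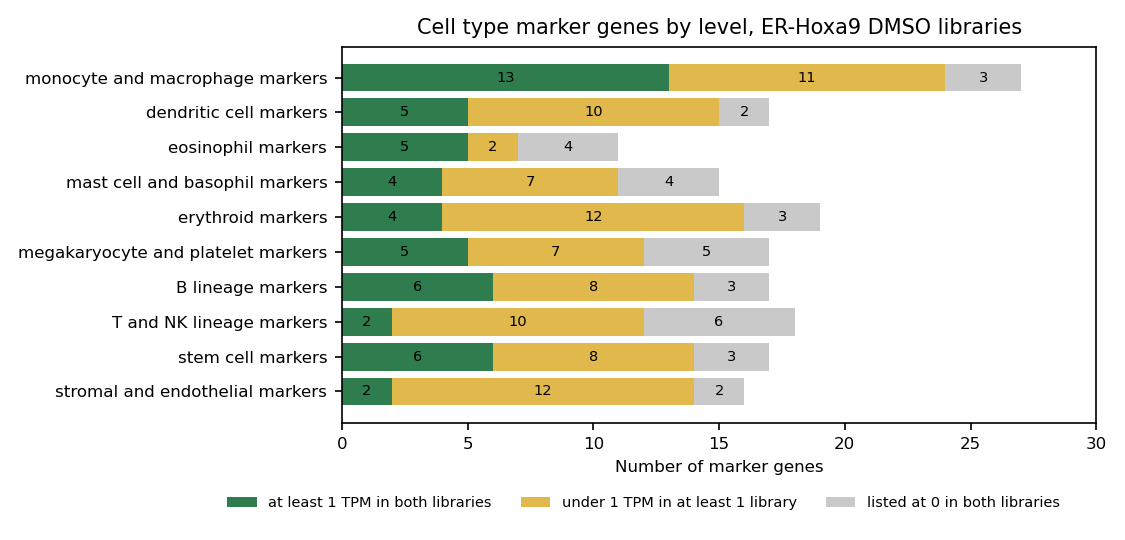
Number of marker genes of each cell type list at 1 TPM or more in both DMSO libraries, above 0 but under 1 TPM in at least 1 library, and listed at 0 in both. Fewer than 1 in 2 members was expressed on each list, from 2 of 18 for T and NK cells to 13 of 27 for monocytes and macrophages. Over all protein-coding symbols the share was 50.6%, and the monocyte and macrophage (48.1%) and eosinophil (45.5%) lists lay near it.

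Of 31 secreted cytokine and chemokine genes 11 were expressed (35.5%, beside 50.6% of all protein-coding symbols). After Mif and Ccl9 came Tgfb1 at 139.5 and 135 TPM and Grn at 100.2 and 94.1 TPM. Il6, an inflammatory cytokine, was at 24.6 and 21.6 TPM and Osm at 10.6 and 8.27 TPM. Genes for the growth factors of the granulocyte line were low or absent, with Csf2 at 0.28 and 0.861 TPM, Il3 at 0.186 and 0.417 TPM and Csf3 listed at 0. Kitl, the gene of stem cell factor itself, was also listed at 0 in cells grown with that factor in the medium, whereas Flt3l, the gene of the FLT3 ligand, was at 22 and 20.7 TPM.

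The cells carried transcripts of active division together with a high level of a tumour suppressor locus. All 31 proliferation genes were expressed, beside 50.6% of all protein-coding symbols, and 27 reached 10 TPM in both libraries. Among them were Cdk4 at 352 and 378 TPM, the replication clamp Pcna at 326 and 389.9 TPM and Mcm7 at 259.5 and 301 TPM. Cdk6 was at 159 and 147 TPM, and of the D cyclins Ccnd2 (81.7 and 73.8 TPM) and Ccnd3 (47.4 and 70.4 TPM) were far above Ccnd1 (2.09 and 2.74 TPM). Cdkn2a, the locus of the p16 and p19 growth inhibitors, was at 440.5 and 441 TPM, level in the libraries and above every other member of its list. Gene totals do not separate its 2 reading frames. Cdkn2b, its neighbour, was low at 0.754 and 0.894 TPM, and Trp53 was at 20.6 and 15.7 TPM. Bcl2, Bcl2l1 and Mcl1, which protect cells from apoptosis, were at 9.57 and 12.1 TPM, 12.3 and 15.4 TPM and 69.7 and 73.2 TPM, and the pro-apoptotic Bax and Bid at 124 and 105 TPM and 137 and 115 TPM.

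The libraries differed little for most genes. The median absolute difference of log2(TPM + 1) was 0.16 over the 10066 genes, a 1.12-fold difference, and 171 genes (1.7%) were past 2-fold. Of these 147 were higher in replicate 2 and 24 in replicate 1. The middle of the distribution was near 0, with a median of 0.04 for replicate 2 minus replicate 1. The share past 2-fold was 3.68% between 1 and 5 TPM and 0.631% between 50 and 200 TPM. The lists of stem and progenitor factors (0 of 23), cytokine receptors (0 of 24), HOX genes and cofactors (0 of 6) and NADPH oxidase genes (0 of 7) held no expressed gene past 2-fold, beside 133 of all 9867 expressed genes (1.35%). With so small a share over all genes, a count of 0 does not set short lists apart. Other lists also held none, among them leukocyte surface antigens (0 of 22) and MHC genes (0 of 16).

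List counts are over members at 1 TPM or more in both libraries, since a gene that passes a mean through 1 library alone had to differ. On the primary granule list 5 of 21 were past 2-fold, all higher in replicate 2. They were Mpo, Prtn3, Elane, Ms4a3 and Nkg7, with log2 differences of 1.84, 1.25, 1.66, 1.81 and 2.00. The list's median difference was nevertheless 0.17, and Ctsg differed by 0.17. On the secondary and tertiary list 3 of 15 were past 2-fold, namely Slpi, Pglyrp1 and Slc11a1 (2.36 and 6.76 TPM), all higher in replicate 2. Of the late neutrophil genes 3 of 12 were past 2-fold, Ifitm1, S100a6 and Alox5ap, again higher in replicate 2. S100a8 and S100a9, under 1 TPM in replicate 2, were higher in replicate 1. F13a1, of the monocyte list, differed by 2.07. Cpa3 went the other way, with a difference of -0.80. The levels of Mpo, Prtn3 and Elane given above therefore depend strongly on the library.

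Among 6946 protein-coding genes whose mean was 10 TPM or more, the 5 with the largest excess in replicate 2 were Ankrd37 (2.28 and 30.3 TPM), Ndufa4l2 (1.62 and 19.8 TPM), Slpi, Bnip3 (18.9 and 100.1 TPM) and Hist1h3g (5.59 and 31.1 TPM). Their log2 differences were 3.26, 2.99, 2.38, 2.34 and 2.29. Ankrd37, Ndufa4l2 and Bnip3 are known targets of the hypoxia-inducible factors. The 5 with the largest excess in replicate 1 were Bglap2 (25.6 and 3.5 TPM), Avil (121 and 38 TPM), Gstp3 (20.8 and 6.98 TPM), Herc3 (20.6 and 7.85 TPM) and Rrm2b (45.6 and 18.3 TPM), with differences of -2.56, -1.65, -1.45, -1.29 and -1.27. Rrm2b is a ribonucleotide reductase subunit under p53 control.

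Lists written after these values were seen describe the rest of the spread and are no independent support for it. Over all expressed genes 56.9% were higher in replicate 2 and 43.1% in replicate 1. Of 30 expressed hypoxia-response and glycolysis genes 28 were higher in replicate 2 and 14 were past 2-fold, with a median difference of 0.81. Eno1 was at 702 and 1999 TPM, Pkm at 286 and 845 TPM, Ldha at 335 and 828 TPM and Aldoa at 529 and 1224 TPM, while Vegfa at 47 and 42.1 TPM and Ero1l at 456 and 450.2 TPM were slightly higher in replicate 1. Of 56 expressed replication-dependent histone genes 54 were higher in replicate 2, 34 of them past 2-fold, with a median difference of 1.11. Most transcripts of replication-dependent histone genes lack a poly(A) tail, and many are near-identical copies among which reads may be split uncertainly. The labels do not state how RNA was selected, and what lies behind the histone difference was not tested.

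The proliferation list, whose genes do not include histones, was higher in replicate 2 for 29 of 31 members, beside 56.9% of all expressed genes, with a median difference of 0.47, and 1 member, Bub1 (8.89 and 20.5 TPM), was past 2-fold. In the other direction, all 17 endoplasmic reticulum chaperone genes of an added list were higher in replicate 1, with a median of -0.23. Hspa5, the main chaperone of that compartment, was at 961 and 580.3 TPM and Hyou1 at 183 and 109 TPM. Of 86 expressed ribosomal protein genes 78 were higher in replicate 1 (median -0.21), and of 16 expressed MHC genes 13 were (median -0.30), beside 43.1% of all expressed genes. No gene of these last 3 lists was past 2-fold, beside 1.35% of all expressed genes. Entries that are not protein-coding also differed, with Mir6236 at 7.23% and 10.7% of all TPM and Rn45s at 0.382% and 0.514%. What these entries share with the gene differences was not tested.

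**Figure D5:**
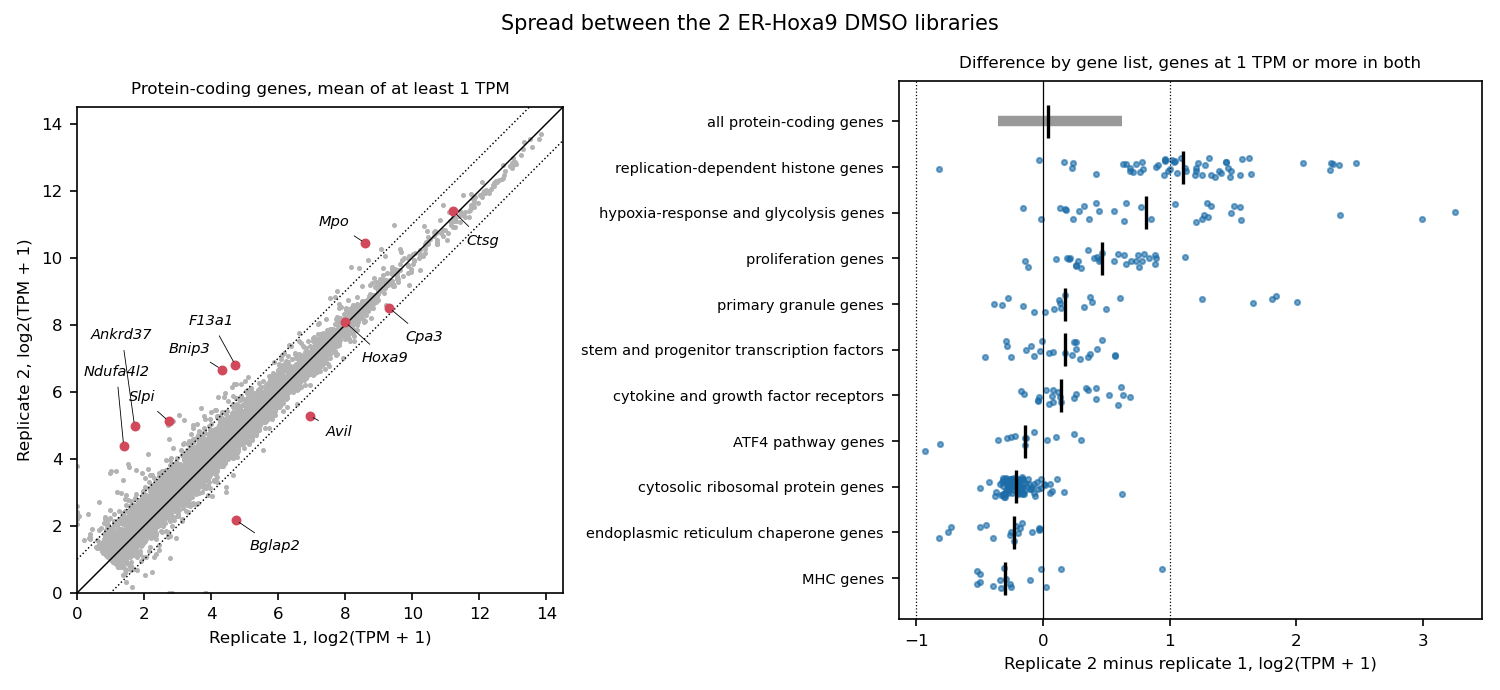
Left, log2(TPM + 1) of each protein-coding gene whose mean was 1 TPM or more, replicate 1 against replicate 2, with equality (solid line) and 2-fold (dotted lines). Right, the difference between the libraries for each expressed gene of 10 lists (points) with the median of each (black ticks), beside the 5th to 95th percentile of all expressed protein-coding genes (grey bar, -0.35 to 0.63), where histone, hypoxia-response and glycolysis, and proliferation genes lie mostly to the right of 0.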

How the data were processed

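Per the labels' protocols, RNA was isolated with an RNeasy kit and a company built the libraries. The deposited values are TPM per gene symbol that the authors made with Salmon, per the submitters' processing notes, which name the builds mm10 and hg38. Which Salmon release and annotation were used is not given in the sources used here. Each TPM column sums to 1000000, so an abundant transcript lowers all others, and depth is not kept. Columns were matched to samples by treatment and number (0 left unmatched).

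Differences are log2(TPM + 1) of replicate 2 minus replicate 1 for genes whose mean was 1 TPM or more. The reference at hand was human, so a symbol was classed protein-coding when a human RefSeq gene of that name is (16236 symbols) or when it had another gene-like name (3250). The other 5007 symbols, placeholders, RNAs and pseudogenes, held 12.8% and 15.9% of TPM. No mitochondrially encoded symbol was listed. Some members of the gene lists were classed otherwise by name (4 symbols) and were kept in the lists.

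The members and the 34 gene lists (655 symbols, 647 in the table, 67 in more than 1 list) were chosen with earlier results of these data known. Named genes were the 25 most abundant protein-coding genes, the 4 most abundant of each list, a fixed set of regulators, receptors, granule and surface genes, and the 5 largest differences each way at a mean of at least 10 TPM. Other list members were named after their values were seen. Some genes that the rule or the lists take are not reported here. Python 3.11.15, pandas 2.3.3 and matplotlib 3.10.9 were used. The counting of differences was tested on simulated data.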

Additional observations from a re-analysis of the deposited data

How the results depend on the processing

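The number of expressed protein-coding genes (9867) lay between 8227 and 10400 over minimums of 5 and 0.5 TPM, rescaling to protein-coding genes and either library alone, and that of expressed list members (343) between 280 and 373. The share of protein-coding TPM in the 25 leading genes (23.01%) was 19.7% when taken of all TPM. With ribosomal protein genes removed from both the ranking and the total, the 25 then leading held 11.7% of what remained. The 171 genes past 2-fold became 316 with a pseudocount of 0.1, 112 at a mean of at least 5 TPM and 766 past 1.5-fold. The count was 157 with libraries scaled by their median ratio, 176 without a filter, and 133 both without histone genes and, separately, at 1 TPM or more in both libraries, settings chosen after seeing the data. Of 170 single-list counts 10 moved by over 1.5 times, 6 of them at the 5 TPM minimum, and the erythroid list had 8 expressed markers in replicate 2 alone against 4. All 10 genes named for their difference kept its direction with a pseudocount of 0.1 and with scaled libraries, but this was fixed in advance. A pseudocount cannot reverse a difference, and scaling by a median ratio of 1.03 could not reverse differences this large.

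Depth is unknown, so no detection limit can be set for genes listed at 0. The 171 genes past 2-fold need both libraries, so neither could be left out. No paired analysis was possible because a single group of 2 libraries was described and no groups were compared.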

Other observations

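Some transcripts outside the 34 gene lists were high enough to note, and were chosen after their values were seen. Genes of the amino acid stress response were abundant in both libraries, with Ddit3, a stress-induced transcription factor, at 689 and 589.9 TPM, Psat1, an enzyme of serine synthesis, at 605 and 743 TPM, Trib3 at 195 and 152 TPM and Atf4, the pathway's transcription factor, at 383 and 364 TPM. An added ATF4 pathway list was written after the values were seen, so its counts are no independent support. All 14 of its genes were expressed, beside 50.6% of all protein-coding symbols. Of these 10 were higher in replicate 1, beside 43.1% of all expressed genes. None was past 2-fold, but with 1.35% of all expressed genes past it, that does not set so short a list apart. Xist and the Y-linked genes, by contrast, form 1 of the 34 gene lists. Xist was at 171 and 144 TPM while the Y-linked genes Kdm5d, Uty and Eif2s3y were listed at 0 and Ddx3y was at 0.179 and 0.173 TPM.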
